A study of Mus musculus with 20 samples.

Results

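The 7 serum miRNAs described here are the 5 mature products of the miR-200 family (miR-200a-3p, miR-200b-3p, miR-200c-3p, miR-141-3p and miR-429-3p) together with miR-203-3p and miR-205-5p. They are listed in the table as mmu-miR-200a-3p, mmu-miR-200b-3p, mmu-miR-200c-3p, mmu-miR-141-3p, mmu-miR-429-3p, mmu-miR-203-3p and mmu-miR-205-5p, and are written below without the species prefix. They were chosen by name, as miRNAs typical of epithelia, from 1915 mature names in the count table. Small RNA was sequenced from the serum of female mice in 20 libraries. There were 5 libraries each from young normal mice, old normal mice, young Ames dwarf mice and old Ames dwarf mice. Young mice were 5 to 6 months old and old mice 21 to 22 months. The labels give every library, normal ones included, the same stock, Ames dwarf on a heterogeneous background, and name no treatment. The Ames dwarf is a long-lived mouse that lacks growth hormone, prolactin and thyroid-stimulating hormone. The controls are called normal in the labels, with no further genotype given. The labels do not say whether the libraries of a group came from separate animals, so the p-values measure the spread between these samples, which may in part be technical.

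The miR-200 family is expressed in most epithelia, where it holds down the transcription factors ZEB1 and ZEB2 and so helps to keep cells in the epithelial state. ZEB1 and ZEB2 in turn repress the transcription of both miR-200 clusters. miR-203 is made in the upper layers of the skin and other stratified epithelia, where it represses the stem cell factor p63 as cells differentiate, and miR-205 is abundant in the basal layer of stratified and glandular epithelia. In serum these miRNAs are cell-free, and fewer contributing cells and less RNA released per cell cannot be told apart.

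The mature sequences show how the family divides. They are RefSeq sequences on GRCm38.p6, found for all 7 names, and are written 5′ to 3′ with the seed (bases 2 to 8, which pair with target mRNAs) in capitals. In the first 3 the seed is the same:
miR-200b-3p: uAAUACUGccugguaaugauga
miR-200c-3p: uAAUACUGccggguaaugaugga
miR-429-3p: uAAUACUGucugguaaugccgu
A second pair shares another seed:
miR-200a-3p: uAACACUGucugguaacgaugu
miR-141-3p: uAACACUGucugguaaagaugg
The remaining members each have a seed of their own:
miR-203-3p: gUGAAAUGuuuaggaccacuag
miR-205-5p: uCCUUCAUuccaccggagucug

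Counted from the 5′ end, miR-200a-3p and miR-200b-3p differed inside the seed by C4U. Outside the seed, miR-200a-3p and miR-141-3p differed at 2 of 22 positions, C17A and U22G, and miR-200b-3p and miR-200c-3p at 2 shared positions, U11G and A22G. miR-203-3p and miR-205-5p differed from each other at 19 of 22 positions. Differences near the 3′ end could keep family members apart only where the reads reached them. In the authors' deposited miRDeep2 report, which pools the 20 libraries, the consensus read of miR-200a-3p was 19 bases long, 3 short of the mature end, and over those bases C17A alone separated it from miR-141-3p. The consensus reads of miR-200c-3p (21 bases), miR-141-3p (21) and miR-429-3p (21) were also short of the mature end, by 2, 1 and 1 bases. Those of miR-200b-3p, miR-203-3p and miR-205-5p were complete. The number of mismatches allowed in mapping is not given in the sources used here.

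Seed and genome position cross each other in the family. On GRCm38, Mir200b, Mir200a and Mir429 lie together on the minus strand of chromosome 4, from 156053905 to 156055750. Their hairpins fall in an intron of the protein-coding gene Ttll10. They also lie within the noncoding gene Gm13648, with Mir429 in one of its exons and the others in its introns. Mir200c and Mir141 lie together on the minus strand of chromosome 6, from 124717914 to 124718390, in an intron of the antisense gene Gm15884. Mir141 also overlaps an exon of the gene Gm29008 on the same strand. Mir203 lies on the plus strand of chromosome 12, from 112130880 to 112130955, outside any other gene of the GENCODE annotation used here, and the authors' deposited miRDeep2 report has a hairpin on the opposite strand, that of miR-203b-3p. Mir205 lies on the minus strand of chromosome 1, from 193507463 to 193507530, in an exon of the lincRNA 4631405K08Rik. Thus the seed AAUACUG comes from both clusters, and so does AACACUG.

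Total counts per library ran from 1343137 to 4710263, and the 7 members took 0.0304% to 0.203% of them (median 0.0752%). The members held 41823 reads in all. Each was read in every library, and each was among the 360 miRNAs that passed the filter on low counts. Summed levels of 5 erythroid miRNAs ran from 207836 to 581840 CPM (counts scaled to a common library size after TMM adjustment), far above the 451 to 2513 CPM of the 7 members together.

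One library stood apart on the members of the chromosome 4 cluster, old normal replicate 1. There miR-200b-3p reached 148 CPM, 12.5 times the median of the other 19 libraries (range 4.37 to 28.5 CPM). miR-429-3p reached 1347 CPM, 7.58 times that median (75.9 to 353 CPM), and miR-200a-3p 628 CPM, 6.67 times (40.5 to 161 CPM). The 5p arms of Mir200b and Mir200a were high there as well, while miR-429-5p had no read in any library. This library held 5.06% of all counts but 17 of the 64 reads of miR-200b-5p and 16 of the 72 reads of miR-200a-5p. The other members were not raised in step. In the same library miR-141-3p was at 214 CPM (1.13 times the median of the others) and miR-200c-3p at 8.55 CPM (1.46 times), both inside the range of the other 19. miR-205-5p was at 99.6 CPM (0.763 times) and miR-203-3p at 68.9 CPM (0.478 times), its lowest level in any of the 20 libraries. miR-141-3p thus made up 9.11% of the family's reads in this library, against 30.6% to 52.6% in the other 19.

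**Figure D1:**
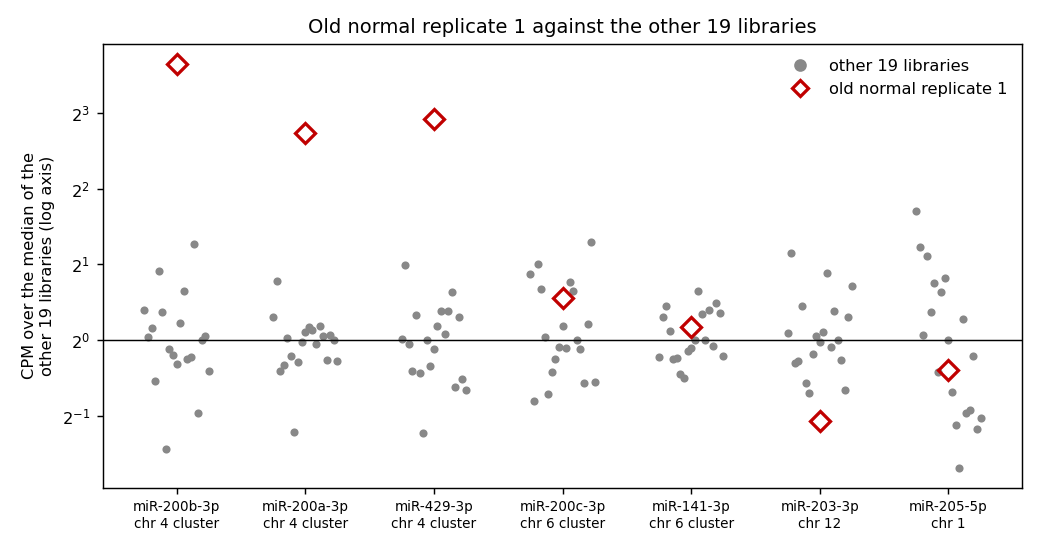
Level of each member in old normal replicate 1 (red diamond) and in the other 19 libraries (grey points), as CPM over the median of those 19, on a log axis with base 2. The 3 members of the chromosome 4 cluster sit 12.5, 6.67 and 7.58 times above that median and above every other library, while the remaining 4 members lie between 0.478 and 1.46 times.

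Other miRNAs were high in that library too. miR-183-5p and miR-182-5p, 2 products of a cluster known from sensory and other epithelia, stood at 9.89 and 7.59 times the median of the other libraries, above all 19. They were the only 2 to do so in a list of 11 other miRNAs of epithelia and glands. In that list miR-31-5p, miR-192-5p, miR-194-5p, miR-215-5p and miR-224-5p were below the median of the others, at 0.154 to 0.835 times. miR-375-3p was above it, at 2.76 times (2292 CPM), but inside the range of the others (171 to 3927 CPM). The sum of the list, 13524 CPM, lay inside the range of the others (5556 to 29301 CPM). Of the 360 tested miRNAs, 49 (13.6%) were highest there, against 57 in young dwarf replicate 3 and 42 in old normal replicate 2. Among all 360, the ratio to the median of the other libraries ranked 5th for miR-200b-3p, 12th for miR-429-3p and 15th for miR-200a-3p. Of 6 lymphocyte miRNAs, 5 were above all other libraries, with a sum of 11670 CPM against 2286 to 8820 CPM elsewhere, and the sum of 5 muscle miRNAs was the lowest of all (318 CPM against 326 to 7619). The summed erythroid, liver, and myeloid and platelet miRNAs lay inside the range of the others. No listed marker of these cell types was without a read over the series. The part of these in the high values was not tested. Group comparisons, distances and correlations of the chromosome 4 cluster are given below with and without this library, except that permutation p-values were computed with all 20 libraries.

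Levels among the members spanned a wide range. By median over the 20 libraries the order was miR-141-3p (190 CPM), miR-429-3p (178 CPM), miR-203-3p (143 CPM), miR-205-5p (122 CPM), miR-200a-3p (94.9 CPM), miR-200b-3p (12.0 CPM) and miR-200c-3p (5.92 CPM). Neighbours among the first 5 were not separated beyond their spread, since the higher of each pair was higher in only 11 to 14 of 20 libraries. miR-200a-3p exceeded miR-200b-3p in 20 of 20 libraries, and miR-200b-3p exceeded miR-200c-3p in 17 of 20. The consensus reads of the members were 19 to 22 bases long. Efficiency of ligation differs between miRNA sequences, so an order of levels between miRNAs is one of reads and not of molecules.

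Hairpins of the same cluster therefore gave very unequal reads. On the log2 scale, miR-141-3p exceeded miR-200c-3p, its neighbour on chromosome 6, by 4.94 ± 0.52 (SD, n = 20), a 30.7-fold difference. Within the chromosome 4 cluster, miR-200a-3p exceeded miR-200b-3p by 2.90 ± 0.54 and miR-429-3p exceeded miR-200a-3p by 0.93 ± 0.30 (log2, SD, n = 20). Without old normal replicate 1 the 3 distances were 4.96 ± 0.53, 2.95 ± 0.51 and 0.93 ± 0.31 (log2, SD, n = 19). These distances within a cluster also held in old normal replicate 1, where they were 4.64, 2.09 and 1.10, each inside the range of the other libraries. Summed by seed, AAUACUG was lower than AACACUG in the other 19 libraries, by a log2 ratio of -0.60 ± 0.35 (SD, n = 19), and higher in old normal replicate 1 (0.84).

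**Figure D2:**
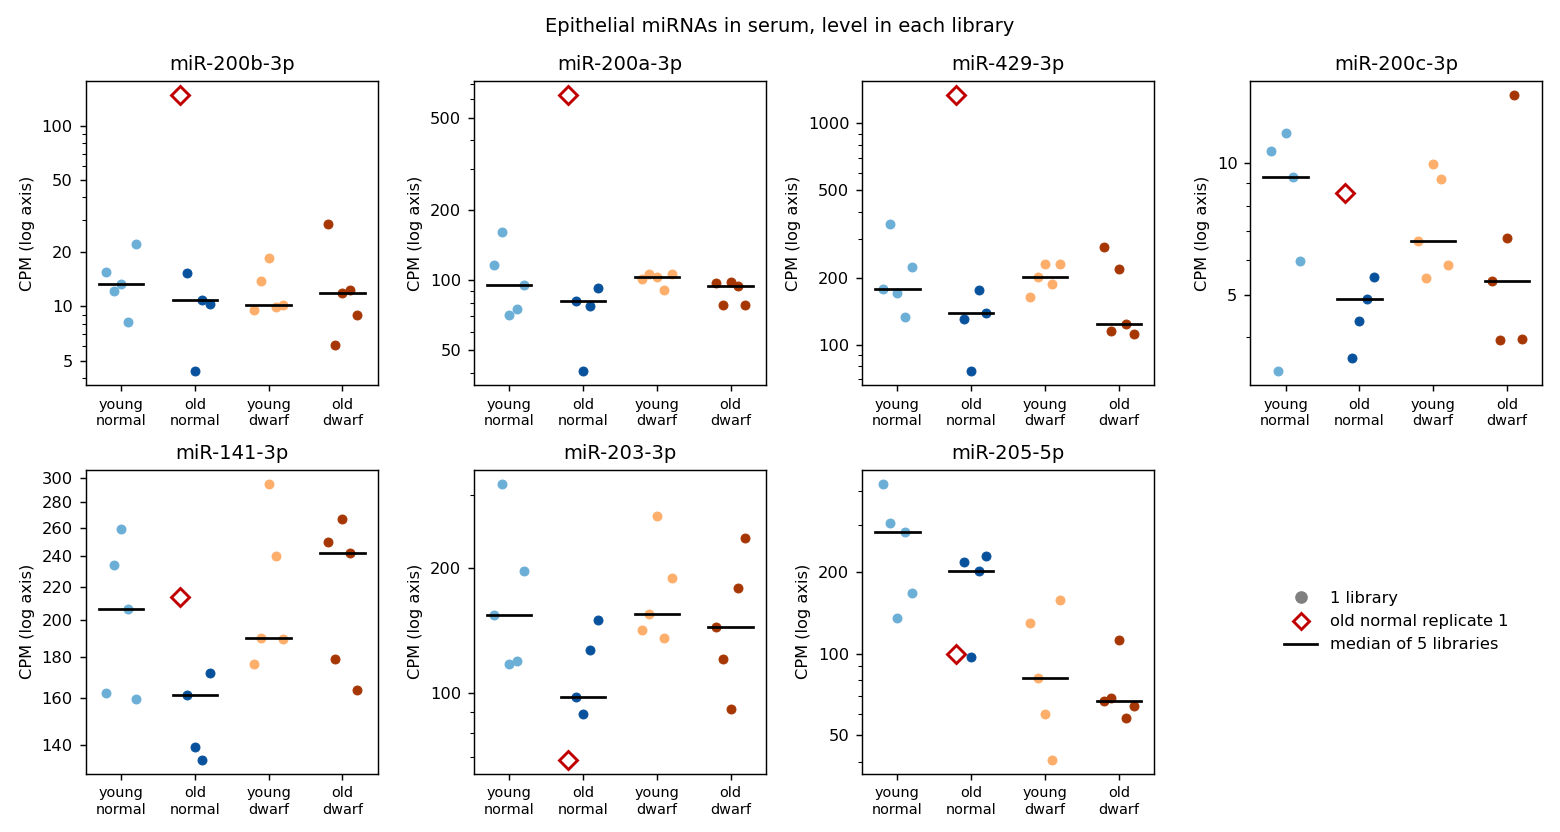
CPM of each member in each library (points) on a log axis, by group of 5 libraries, with the group median as a line and old normal replicate 1 as an open diamond. Only miR-205-5p has both dwarf medians (81.2 and 66.8 CPM) below every normal library, while the members of the chromosome 4 cluster differ mainly by the single library at the top.

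miR-205-5p, the miRNA of the basal epithelial layer, was the only member that edgeR with TMM factors called in any comparison. Its values were lower in dwarf libraries at both ages, past the threshold in old mice only. In young normal serum it stood at 426, 304, 136, 283 and 169 CPM in replicates 1 to 5, and in young dwarf serum at 130, 81.2, 59.9, 40.6 and 159 CPM. Of the young dwarf libraries, 4 lay below every young normal one, and the ranges overlapped through young dwarf replicate 5. The mean of the 5 dwarf libraries was 94.1 ± 49.2 CPM (SD) and that of the 5 normal ones 264 ± 116 CPM. The log2 fold change was -1.48 ± 0.39 (SE), and it did not pass the threshold of 0.05 in edgeR's quasi-likelihood test (Benjamini-Hochberg adjusted p = 0.183 over 360 miRNAs). DESeq2 called it (adjusted p = 0.022), as did the edgeR fit with a haemolysis index as a covariate (adjusted p = 0.031).

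In old mice the same miRNA was lower in dwarf serum and passed the test. Old normal libraries held 99.6, 219, 97.8, 202 and 231 CPM of miR-205-5p, and old dwarf libraries 66.8, 68.5, 113, 58.0 and 64.1 CPM. In this comparison 4 of 5 old dwarf libraries lay below every old normal one, old dwarf replicate 3 lay above 2 of them, and the ranges overlapped. The mean was 74.0 ± 22.0 CPM (SD) over the 5 dwarf libraries and 170 ± 65.9 CPM over the 5 normal ones. The log2 fold change was -1.20 ± 0.39 (SE), with an adjusted p of 0.0299 in edgeR's quasi-likelihood test. Without old normal replicate 1 it was -1.33 ± 0.40 (adjusted p = 0.0319).

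The adjusted p in old mice lay close to the threshold. The call was lost when old normal replicate 2, 4 or 5 or old dwarf replicate 1, 4 or 5 was left out (adjusted p from 0.0651 to 0.0902), although the log2 fold change stayed between -1.39 and -1.06 over all 20 such fits. It was also lost with unscaled library totals (0.0649). A haemolysis index was taken as log2 of the red cell miRNA miR-451a over miR-23a-3p. Old normal libraries had an index of 4.30 ± 0.70 and old dwarf libraries one of 5.38 ± 0.44 (SD, n = 5). The summed erythroid miRNAs did not follow the index. They were at 460343 ± 72211 CPM in old normal and 413815 ± 110937 CPM in old dwarf libraries (SD, n = 5). With the index as a covariate the log2 fold change of miR-205-5p in old mice was -0.34 (edgeR adjusted p = 0.696). In young mice the index was 5.45 ± 0.61 in normal and 5.40 ± 0.43 in dwarf libraries, and the fold change with the covariate was -1.54. Myeloid and platelet miRNAs moved with the old groups as well, with sums of 53587 to 75141 CPM over 5 listed miRNAs in old normal and 20292 to 57606 CPM in old dwarf libraries. Lymphocyte miRNAs summed to 3614 to 11670 CPM in old normal and 2655 to 3681 CPM in old dwarf libraries. The part of these blood cell miRNAs in the result was not tested.

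With age, the log2 fold change of miR-205-5p was -0.63 ± 0.38 in normal mice (adjusted p = 0.213) and -0.35 ± 0.38 in dwarf mice (adjusted p = 0.997, both by edgeR with Benjamini-Hochberg adjustment). Neither passed the threshold. With the haemolysis index as a covariate the first was -1.47 ± 0.39 (SE, edgeR adjusted p = 0.107). The difference between these age effects, dwarf minus normal, was 0.29 ± 0.54 (edgeR adjusted p = 0.808), and 1.20 ± 0.50 with the index as a covariate (edgeR adjusted p = 0.650).

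miR-203-3p, the miRNA of the differentiating upper layers, did not follow miR-205-5p. Its levels were 154, 319, 117, 119 and 196 CPM in young normal libraries and 68.9, 97.6, 88.6, 127 and 150 CPM in old normal ones. In old normal serum 3 of 5 libraries lay below every young normal library, and the ranges overlapped. The log2 fold change with age in normal mice was -0.77 ± 0.32 (SE, edgeR adjusted p = 0.0866), and -0.65 ± 0.33 without old normal replicate 1 (0.171). DESeq2 (0.0381) and unscaled library totals (0.0362) placed it past the threshold. Dwarf libraries held 141.4, 155, 266, 136 and 189 CPM in young and 144, 120, 91.3, 179 and 237 CPM in old mice, overlapping widely. The fold changes of miR-203-3p between dwarf and normal were -0.03 ± 0.32 in young and 0.53 ± 0.32 in old mice (log2, SE, adjusted p = 0.986 and 0.197 by edgeR).

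The ratio of the stratified-epithelium miRNAs to each other does not depend on library scaling. The log2 ratio of miR-205-5p to miR-203-3p was 0.53 ± 0.78 in young normal and 0.63 ± 0.37 in old normal libraries. It was -1.04 ± 0.90 in young dwarf and -1.03 ± 0.85 in old dwarf libraries (SD, n = 5). All 5 young dwarf libraries and 4 of 5 old dwarf libraries were below 0. In normal serum only young normal replicates 2 and 5 were below 0, at -0.07 and -0.22, so the groups overlapped. This ratio was given no test.

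**Figure D3:**
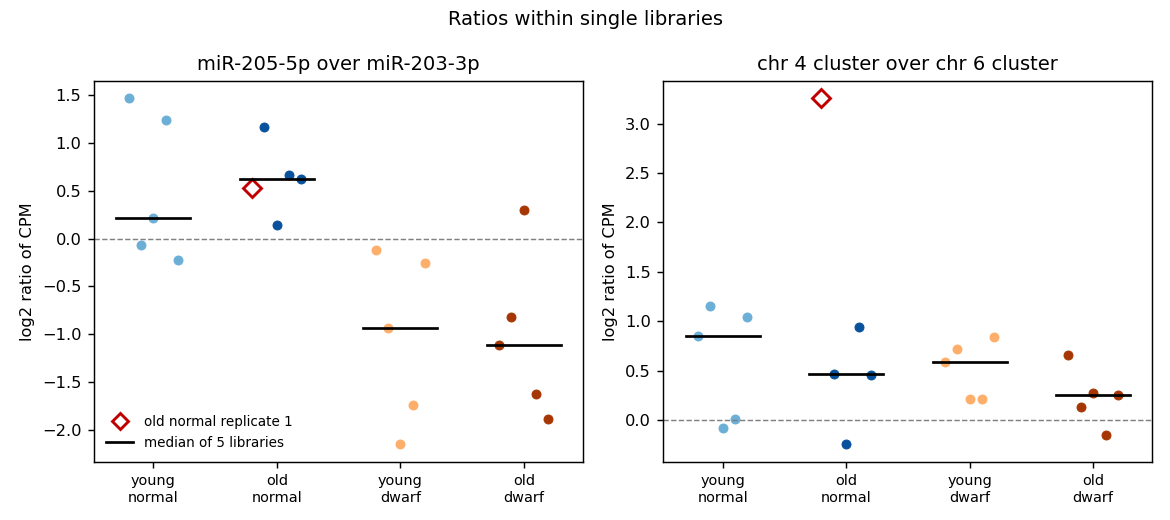
Log2 ratio of CPM within each library (points) by group of 5, with the group median as a line and old normal replicate 1 as an open diamond, for miR-205-5p over miR-203-3p (left) and for the summed chromosome 4 cluster over the summed chromosome 6 cluster (right). On the left the dwarf medians are -0.93 and -1.11 and the normal medians 0.21 and 0.62, and on the right old normal replicate 1 stands at 3.26 against a highest value of 1.15 elsewhere.

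No member of the chromosome 4 cluster passed the test in any comparison. miR-429-3p was at 179, 353, 172, 134 and 224 CPM in young normal and at 1347, 131, 75.9, 178 and 140 CPM in old normal libraries. It was at 164, 202, 231, 188 and 232 CPM in young dwarf and at 276, 115, 220, 124 and 112 CPM in old dwarf libraries. Apart from old normal replicate 1, all 4 groups overlapped. miR-200a-3p, from the adjoining hairpin, was at 116, 161, 70.8, 74.9 and 95.6 CPM in young normal and at 628, 81.5, 40.5, 77.4 and 92.3 CPM in old normal libraries. The dwarf groups were tighter, at 102, 106, 103, 91.1 and 107 CPM in young and 97.4, 78.1, 98.6, 94.2 and 78.0 CPM in old mice. miR-200b-3p, the least read of the cluster, ran from 8.16 to 22.2 CPM in young normal, from 9.49 to 18.5 CPM in young dwarf and from 6.09 to 28.5 CPM in old dwarf libraries. Old normal libraries other than replicate 1 ran from 4.37 to 15.2 CPM.

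That 1 library set the sign of every fold change of this cluster that involved old normal mice. Old dwarf against old normal, the log2 fold changes were -1.48 ± 0.71 for miR-200b-3p, -1.04 ± 0.52 for miR-200a-3p and -1.14 ± 0.58 for miR-429-3p (SE). Without old normal replicate 1 they were 0.44 ± 0.43, 0.30 ± 0.26 and 0.38 ± 0.32. The edgeR adjusted p-values were 0.108, 0.126 and 0.133 with it and 0.446, 0.386 and 0.379 without it, so none was called. Old normal against young normal, a comparison that shares the old normal libraries, the fold changes were 1.40 ± 0.70, 0.83 ± 0.52 and 0.82 ± 0.58 with it. They were -0.51 ± 0.43, -0.51 ± 0.26 and -0.70 ± 0.33 without it. Again none was called (edgeR adjusted p from 0.136 to 0.288 with it and from 0.152 to 0.380 without it). DESeq2 returned no adjusted p for these 3 members.

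In old normal replicate 1 the members of the chromosome 6 cluster were inside the range of all other libraries. They were above every other old normal library, at 214 against 134 to 172 CPM for miR-141-3p and 8.55 against 3.58 to 5.49 CPM for miR-200c-3p. Neither member was called by edgeR in any comparison. miR-141-3p was at 162, 234, 259, 206 and 160 CPM in young normal and 214, 161, 139, 134 and 172 CPM in old normal libraries. It was at 176, 190, 295, 240 and 189 CPM in young dwarf and 250, 179, 266, 242 and 163 CPM in old dwarf libraries. In old mice 3 of 5 dwarf libraries were above every normal one, and the ranges overlapped. The log2 fold change there was 0.42 ± 0.22 (edgeR adjusted p = 0.131), and 0.55 ± 0.22 without old normal replicate 1 (0.0825), while DESeq2 placed it past the threshold (0.0349). miR-200c-3p had 334 reads in all, 4 to 38 per library. In normal mice its mean was 8.20 ± 3.46 CPM when young and 5.38 ± 1.91 CPM when old (SD, n = 5). Dwarf mice had 7.42 ± 2.04 CPM when young and 6.88 ± 4.32 CPM when old, and all ranges overlapped. For miR-200c-3p the log2 fold change was 0.31 ± 0.41 for old dwarf against old normal and -0.59 ± 0.40 for old normal against young normal (SE). Without old normal replicate 1 these were 0.54 ± 0.43 and -0.82 ± 0.42.

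Over the 7 members, few calls were made. Young dwarf against young normal, 0 of 7 passed the threshold in edgeR, where 0% of the 360 tested miRNAs did. Old dwarf against old normal, 1 of 7 was called lower (miR-205-5p) and none higher, against 10.3% of all tested miRNAs lower and 26.4% in either direction. Old normal against young normal, 0 of 7 were called, against 15.6% of all. Old dwarf against young dwarf and for the difference of the age effects, 0 of 7 were called, against 0.556% of all in each. At an unadjusted p under 0.05 the counts were 1, 2, 1, 0 and 0 of 7 in these 5 contrasts, beside 28, 163, 138, 14 and 57 of the 360. DESeq2 called 1, 2, 1, 0 and 0 of the members, beside 6, 136, 117, 2 and 20 of the 360. It returned no adjusted p for the members of the chromosome 4 cluster, so these could not be called.

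The medians of the members' log2 fold changes were -0.06, -1.04, -0.32 and -0.19 in the 4 comparisons, beside -0.04, -0.06, -0.0042 and 0.02 over all tested miRNAs. The median of -1.04 in old mice is that of miR-200a-3p, which rests on old normal replicate 1. Without that library the members' median was 0.42 for old dwarf against old normal, with 6 of 7 above 0, and -0.51 for old normal against young normal, with 7 of 7 below 0. The medians over all tested miRNAs were then -0.03 and -0.05. Old normal replicate 1 was singled out for high values of 3 members, so leaving it out moves those members in these directions. Both contrasts also share the remaining old normal libraries. No member had groups whose ranges did not overlap in any of the 4 comparisons. Over all tested miRNAs that share was 1.94% and 12.5% for dwarf against normal in young and old mice, and 7.78% and 1.67% for old against young in normal and dwarf mice.

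**Figure D4:**
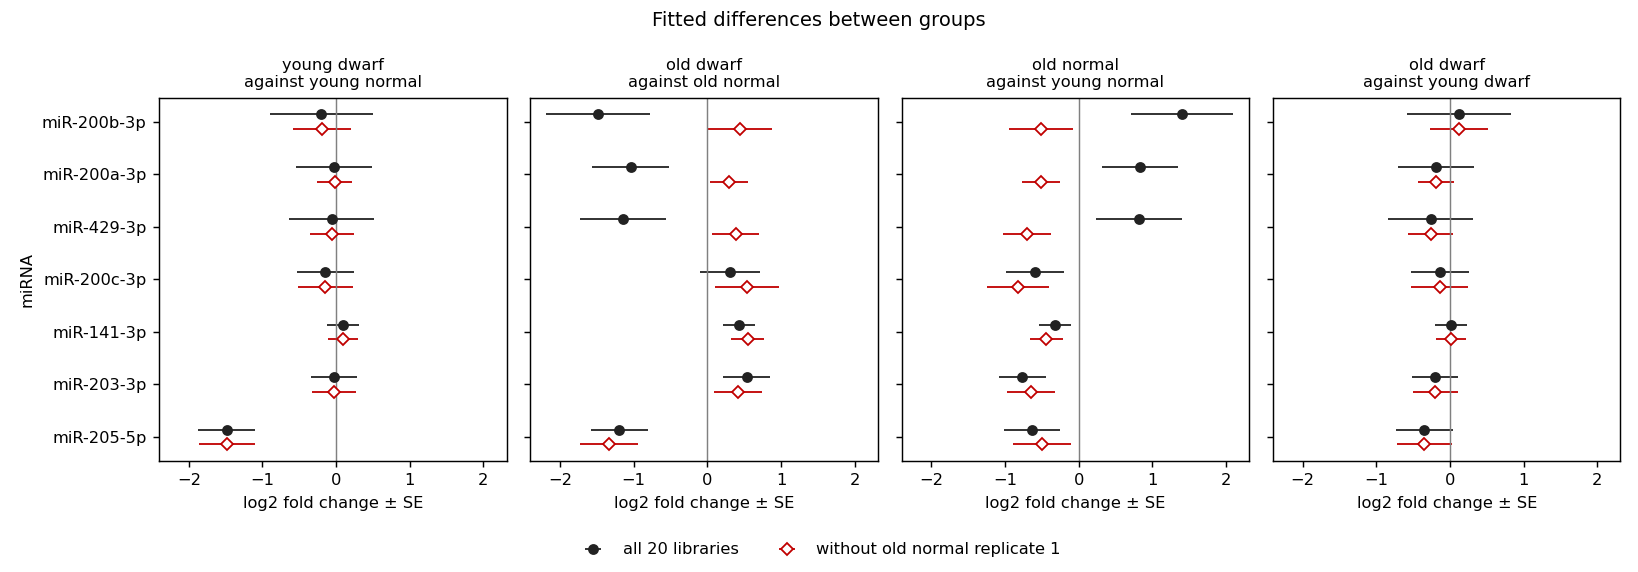
Log2 fold change of each member (points) with its standard error (bars) from edgeR in 4 comparisons, with all 20 libraries (black) and without old normal replicate 1 (open red diamonds). In the middle panels the 3 members of the chromosome 4 cluster change sign when that library is left out, whereas miR-205-5p stays at -1.20 and -1.33 for old dwarf against old normal.

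Across libraries, the hairpins of the chromosome 4 cluster varied together. Of 21 pairs of members, 3 had a correlation of log2 CPM over the 20 libraries that passed a permutation test after Benjamini-Hochberg adjustment over the 21, and they were the 3 pairs within the chromosome 4 cluster. For miR-200a-3p and miR-429-3p, Pearson's r was 0.93 (permutation p = 1e-05, the smallest that 100000 resamples can give, adjusted p = 0.00021). Spearman's rho was 0.76 (permutation p = 0.00018, adjusted 0.0038), and r was 0.72 without the 2 libraries farthest from the median of miR-200a-3p.

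Old normal replicate 1 raised these values. Without it, r was 0.81 for miR-200a-3p and miR-429-3p, 0.69 for miR-200b-3p and miR-429-3p (0.89 with it) and 0.55 for miR-200a-3p and miR-200b-3p (0.86 with it). The rho values of these pairs without it were 0.72, 0.60 and 0.47. For miR-200b-3p and miR-429-3p the permutation p was 4e-05 (adjusted 0.00042), rho was 0.66 (permutation p = 0.0018, adjusted 0.0191), and r was 0.56 without the 2 farthest libraries. For miR-200a-3p and miR-200b-3p the permutation p was 0.00034 (adjusted 0.00238), but rho was 0.55 (permutation p = 0.013, adjusted 0.0944) and r fell to 0.28 without the 2 farthest libraries. That last relation rested on those libraries. Values were also centred on group means that included old normal replicate 1, and that library was then left out. So computed, r was 0.83, 0.77 and 0.66 for the 3 pairs. The group mean of the old normal libraries still carried the high values of that library. These r therefore do not show how the members varied inside groups without it.

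Over all 20 libraries the other pairs gave weaker values. miR-200c-3p and miR-141-3p, neighbours on chromosome 6, had r = 0.51 (permutation p = 0.022, adjusted 0.117) and rho = 0.48 (permutation p = 0.032, adjusted 0.170). Of the pairs with the same seed on different chromosomes, miR-200a-3p and miR-141-3p had r = 0.27 (permutation p = 0.25, adjusted 0.668). For miR-200b-3p and miR-200c-3p r was 0.25 (permutation p = 0.30, adjusted 0.691), and for miR-200c-3p and miR-429-3p 0.15 (permutation p = 0.56, adjusted 0.835). Their rho values were 0.28 (permutation p = 0.23, adjusted 0.552), 0.26 (permutation p = 0.26, adjusted 0.552) and 0.13 (permutation p = 0.57, adjusted 0.848). Without old normal replicate 1, r was 0.39, 0.21 and 0.035 in that order. miR-203-3p and miR-205-5p had r = 0.01 and rho = -0.05 (permutation p = 0.97 and 0.83, adjusted 0.966 and 0.871). miR-203-3p and miR-200a-3p had r = -0.10 over all libraries and 0.64 without old normal replicate 1, where the first was lowest and the second highest. That 0.64 was above the 0.55 of miR-200a-3p and miR-200b-3p, of the same cluster, without that library. Also without it, r was 0.50 for miR-141-3p and miR-429-3p, for miR-429-3p and miR-203-3p, and for miR-200c-3p and miR-141-3p. The difference between correlations was not tested.

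**Figure D5:**
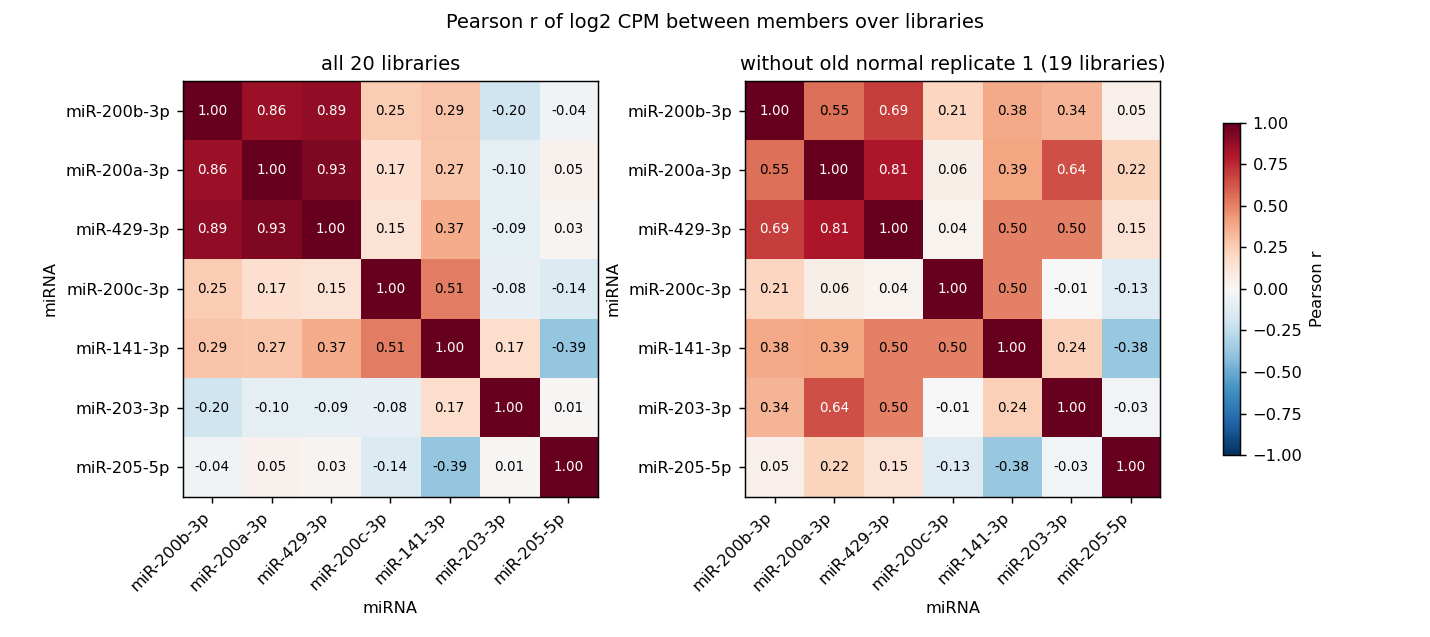
Pearson's r of log2 CPM for every pair of members over all 20 libraries (left) and over the 19 without old normal replicate 1 (right), with the value printed in each cell and red for positive values. The block of miR-200b-3p, miR-200a-3p and miR-429-3p runs from 0.86 to 0.93 on the left and from 0.55 to 0.81 on the right, and miR-205-5p has no value above 0.22 with any other member in either.

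The miRNAs most like each member were sought among all tested ones by Pearson's r of log2 CPM over the 20 libraries, as a description. For miR-205-5p the closest was miR-335-3p (r = 0.77), then miR-669o-3p and miR-669a-3p (0.70 each, from the same counts), and for miR-203-3p the closest were miR-214-3p (0.85), miR-143-3p (0.81) and miR-382-5p (0.81). These were little changed without old normal replicate 1, at 0.77 for miR-335-3p and 0.82 for miR-214-3p. miR-141-3p was most like miR-34c-5p (0.64), miR-101a-5p (0.63) and the red cell miRNA miR-451a (0.61), and miR-200c-3p most like miR-16-1-3p (0.66), miR-350-3p (0.64) and miR-17-5p (0.60). In the chromosome 4 cluster each member had the other cluster members in its first 2 places when all 20 libraries were used. The third places went to miR-182-5p for miR-200a-3p (0.82, or 0.55 without old normal replicate 1), miR-183-5p for miR-429-3p (0.81, or 0.55) and miR-10a-3p for miR-200b-3p (0.71, or 0.59). Without that library the places changed. miR-200b-3p was then most like let-7e-3p (0.71), miR-125a-5p (0.71) and let-7e-5p (0.70), with no cluster member among these 3. The second place went to miR-203-3p for miR-200a-3p (0.64) and to miR-126a-3p, a miRNA of endothelium and platelets, for miR-429-3p (0.77), while miR-200a-3p and miR-429-3p stayed first for each other (0.81).

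Among other miRNAs of epithelia and glands, few were called. The list of 11 held miRNAs of skin, gut, sensory and endocrine epithelia, of which 8 were tested, and miR-135b-5p had no read. Old dwarf against old normal, 1 of 8 was higher and 0 lower, beside 16.1% higher and 10.3% lower of all tested miRNAs. This was miR-224-5p, at 21.6 ± 16.6 against 3.76 ± 1.67 CPM (SD, n = 5), with a log2 fold change of 2.48 ± 0.64 (edgeR adjusted p = 0.0109). Old normal against young normal, 1 of 8 was higher and 0 lower, namely miR-215-5p, a miRNA of gut and kidney epithelium, at 7539 ± 3353 against 2783 ± 1209 CPM (log2 fold change 1.44 ± 0.48, edgeR adjusted p = 0.0475). Of all tested miRNAs 5% were called higher and 10.6% lower there. In the other comparisons 0 of 8 were called. The median log2 fold change of the 8 was 0.23 for young dwarf against young normal, -0.40 for old dwarf against old normal, 0.69 for old normal against young normal and 0.10 for old dwarf against young dwarf.

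The passenger arms of the 7 hairpins were rare. Over all libraries miR-200b-5p made up 6.93% of the reads of its hairpin (95% exact binomial interval 5.37% to 8.76%) and miR-200a-5p 1.30% (1.02% to 1.64%). miR-205-3p made up 0.80% (0.61% to 1.03%), miR-141-5p 0.25% (0.16% to 0.37%) and miR-203-5p 0.23% (0.13% to 0.37%). miR-429-5p had no read beside 10948 of miR-429-3p, and the exact interval of its share reached up to 0.0337%. miR-200b was thus the hairpin with the largest passenger share of the 7, although it was among the least read. These intervals cover counting error only, and none of the 7 passenger arms passed the filter for testing.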

How the data were processed

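Serum small RNA of 20 mouse libraries was analysed. The authors' table held deposited read counts per mature miRNA and precursor, as written by the quantifier of miRDeep2 (per the file headers). A deposited RPM column per sample, scaled by the authors, was not used. A deposited miRDeep2 report on the pooled libraries gave consensus reads and a score per hairpin. The submitters' processing notes list Bowtie 0.12.8, bedtools, edgeR and GRCm38 (mm10), without roles.

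The row with the highest total was used for each name, and each member had 1 row. Counts were tested with edgeR 4.0.16 (quasi-likelihood, R 4.3.3, limma 3.58.1) in a model of the 4 groups over 20 libraries. TMM factors and the default filter (minimum count 10) were used. Benjamini-Hochberg adjustment ran over 360 miRNAs, with a threshold of 0.05. Each SE divides the log2 fold change by the root of its F statistic. CPM uses TMM-adjusted totals, and correlations use log2 CPM with a prior count of 2. The fit was tested on simulated data. DESeq2 1.42.0 and the other alternatives are in the closing section. All members were named. Other arms were named from 10 reads in all, up to 3 of the epithelial list by smallest p in a comparison, and the 3 miRNAs most like each member. The members and lists were chosen with earlier results of these data known. Fragments of tRNA were not analysed here.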

Additional observations from a re-analysis of the deposited data

Results flagged for a closer look

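In 28 sets of 5 libraries (7 members in 4 groups), 6 held an extreme library on the CPM scale, whose gap to the nearest other library was over 0.71 of the set's range. Chance gives about 1 in 20 where values are not skewed. On log2 CPM, 1 of the 28 sets held such a library (miR-205-5p in old dwarf replicate 3), and the gap of old normal replicate 1 was 0.700, 0.646 and 0.704 of the range for miR-200a-3p, miR-200b-3p and miR-429-3p. In old normal replicate 1, miR-200a-3p was at 628 CPM (40.5 to 92.3 in the other 4), miR-200b-3p at 148 CPM (4.37 to 15.2) and miR-429-3p at 1347 CPM (75.9 to 178). In old dwarf serum, miR-200b-3p was at 28.5 CPM in replicate 1 (6.09 to 12.3 in the other 4). miR-200c-3p was at 14.3 CPM in old dwarf replicate 4 (3.94 to 6.76), and miR-205-5p at 113 CPM in old dwarf replicate 3 (58.0 to 68.5).

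The authors' deposited miRDeep2 report pools the 20 libraries, and no comparison used it. It also listed a hairpin opposite Mir203, on the minus strand of chromosome 12 from 112130887 to 112130946, with 127 reads and a score of 5.4. Its consensus read is that of miR-203b-3p in RefSeq and has another seed than miR-203-3p:
miR-203b-3p: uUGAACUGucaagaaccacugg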

How the results depend on the processing

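Of 1042 alternative values of the members' fold changes, 984 kept their direction and side of the threshold, 44 turned, 9 lost a call and 5 gained one. DESeq2 values without an adjusted p were counted as not past the threshold. The cause was not tested. Of those that turned, 31 had a size under 0.3 (log2) at first, and none was past the threshold in either fit.

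The number of members called rose from 0 to 1 for young dwarf against young normal with DESeq2 and with the haemolysis index. For old dwarf against old normal it went from 1 to 2 with DESeq2 and to 0 with library totals, the haemolysis index or the replicate block, and it ran from 0 to 1 leaving out single libraries. For old normal against young normal it rose from 0 to 1 with library totals and with DESeq2. Over all 360 miRNAs, calls for old dwarf against old normal went from 95 to 136 with DESeq2, 119 with library totals, 92 with the block and 0 with the haemolysis index. For old normal against young normal they went from 56 to 117, 106, 38 and 1, and for young dwarf against young normal from 0 to 6, 0, 0 and 1. Library totals moved the median of all miRNAs by up to -0.42.

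Replicate numbers did not pair the libraries: 13 of 30 same-numbered pairs had a correlation over 0.1, and 3 of 20 libraries were closest to their own number. With the replicate block, miR-205-5p in old mice had an adjusted p of 0.0554 (edgeR). For young dwarf against young normal the block gave 0.039 for miR-200a-3p and 0.020 for miR-203-3p, and for old dwarf against young dwarf -0.21 for miR-200b-3p.

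With library totals, young dwarf against young normal gave 0.12 for miR-200a-3p, 0.0039 for miR-200b-3p, 0.18 for miR-200c-3p, 0.075 for miR-429-3p and 0.11 for miR-203-3p. Old dwarf against young dwarf gave -0.22 for miR-200b-3p and -0.40 for miR-141-3p (-0.070 without a filter). With the haemolysis index miR-200c-3p was at -0.38 for old dwarf against old normal, 0.084 for old normal against young normal and -0.25 for the difference of the age effects. miR-200c-3p was too low to be tested when only the old groups were fitted.

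Leaving out 1 library at a time, fold changes that turned in at least 1 fit had these ranges. For young dwarf against young normal they were -0.13 to 0.19 for miR-200a-3p, -0.41 to 0.018 for miR-200b-3p, -0.34 to 0.0098 for miR-200c-3p, -0.046 to 0.19 for miR-141-3p, -0.17 to 0.20 for miR-429-3p and -0.25 to 0.27 for miR-203-3p. For old dwarf against old normal they were -1.29 to 0.30 for miR-200a-3p, -1.94 to 0.44 for miR-200b-3p, -1.40 to 0.38 for miR-429-3p and -0.10 to 0.54 for miR-200c-3p. For old normal against young normal they were -0.51 to 1.08 for miR-200a-3p, -0.51 to 1.69 for miR-200b-3p and -0.70 to 1.08 for miR-429-3p. For old dwarf against young dwarf they were -0.36 to 0.32 for miR-200b-3p, -0.56 to 0.014 for miR-200c-3p and -0.063 to 0.15 for miR-141-3p. For the difference of the age effects they were -1.27 to 0.32 for miR-200a-3p, -1.75 to 0.63 for miR-200b-3p and -1.34 to 0.44 for miR-429-3p. The chromosome 4 cluster turned only without old normal replicate 1 in the 3 contrasts with old normal mice. miR-200c-3p was the least read member (4 to 38 reads per library).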
